A study of Bos taurus with 38 samples.

Results

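Liver biopsies of high-RFI dairy cows were compared between Holsteins and Jerseys. Residual feed intake (RFI) is the feed a cow eats minus the feed predicted from her production, so a high-RFI cow is one of low feed efficiency, and these cows carry the label of low feed efficiency. The study's own listing of its cows gives the RFI groups the opposite names; the groups here follow that label and the definition of RFI. The group held 18 of the 38 libraries of the series and 9 of its 19 cows: 4 Holsteins (cows 2, 7, 9 and 15) and 5 Jerseys (cows 3, 4, 12, 13 and 18). Every cow was biopsied on both diets of a crossover, once on a control diet low in concentrate (C) and once on a high concentrate diet (HC), and the counts of the 2 libraries of a cow were summed, so that the cow was the replicate. Among the Holsteins, cow 2 was in parity 3, cows 7 and 9 in parity 2 and cow 15 in parity 1. Among the Jerseys, cows 3 and 4 were in parity 3, cow 12 in parity 2 and cows 13 and 18 in parity 1. Each of the high-RFI Holsteins shared a selection block with 1 of the Jerseys, and Jersey cow 13 stood alone in hers. All cows came from 1 research herd. RFI itself was not matched: its values run on the whole higher in the high-RFI Jerseys than in the high-RFI Holsteins, one of which lies just below 0, and the part of this gap in the breed differences was not tested.

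The liver makes glucose, bile acids and plasma proteins, handles the fatty acids that a lactating cow mobilizes, and clears foreign compounds. A biopsy holds mostly hepatocytes, with resident macrophages (Kupffer cells), lymphocytes and endothelial cells among them, and its RNA is a mixture of all these cells. Holstein is the larger breed with the higher milk volume, and Jersey the smaller one with milk richer in fat. The comparison asks which liver genes differed between the breeds when both were of low feed efficiency.

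Between 17472750 and 22767550 read pairs were counted on genes in each library (median 19878414), and 36351245 to 42846561 per cow. Of the 24616 Ensembl genes, 12020 reached 1 CPM (counts scaled to library size) in 4 or more of the 9 cows and were tested; they held 99.88% of the counts. The libraries of a cow belonged together: their deviations from the group means correlated with an r of 0.21 to 0.61 across genes, which are not independent replicates. Among the HC libraries of the same breed and RFI group, the closest to each cow's C library was her own, for 9 of 9 cows. Libraries of the same diet or of the other breed were not part of this check. Symbols were at hand for 77 genes, which the study had listed for differences by RFI in these same cows, so their behaviour here is not independent evidence of a breed difference, and the other genes could be given by identifier only. Of the 77 genes, 76 were tested. The label of liver could be checked only on a few of them: CYP7A1 and CYP3A4, enzymes of hepatocytes, lay between 89.8 and 620.9 CPM and between 106 and 150.0 CPM in all 9 cows.

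In a principal component analysis of the 500 most variable genes, the first component held 27.1% of the variance and separated the breeds. The 4 Holsteins scored 17.5 (cow 2), 17.2 (cow 7), 13.5 (cow 9) and 2.94 (cow 15) on it. The 5 Jerseys scored -9.13 (cow 3), -5.16 (cow 4), -12.2 (cow 12), -14.7 (cow 13) and -9.90 (cow 18). No Holstein overlapped a Jersey on this axis, and Holstein cow 15 and Jersey cow 4 were nearest to each other. The second component held 15.7% and did not separate the breeds.

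**Figure D1:**
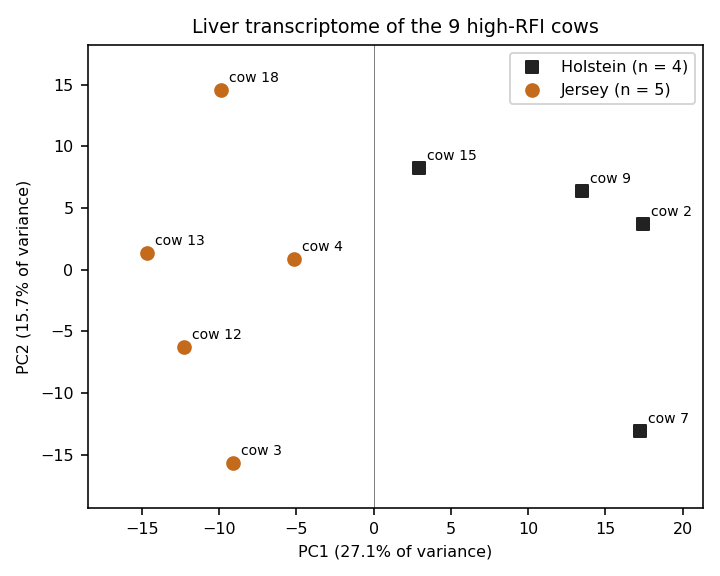
Scores of the 9 high-RFI cows on the first (horizontal) and second (vertical) principal component of log2 CPM, with the share of variance on each axis, squares for Holsteins and circles for Jerseys. All 4 Holsteins lie right of 0 and all 5 Jerseys left of it on the first component.

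With parity in the model, 13 of the 12020 genes differed between the breeds at a Benjamini-Hochberg adjusted p under 0.05 in edgeR's quasi-likelihood test (0.108%). Of these, 6 were higher in the Holsteins (0.0499% of the genes tested) and 7 in the Jerseys (0.0582%). At an unadjusted p under 0.05 there were 1628 genes (13.5%), 841 higher in the Holsteins and 787 lower. The ranges of the breeds did not overlap in 666 genes (5.54%), with all Holsteins above all Jerseys in 381 (3.17%) and below them in 285 (2.37%). The median absolute log2 fold change of all genes was 0.10, and 123 genes differed by more than 1 on the log2 scale. The 13 genes ranged from 0.38 to 4.59 in absolute log2 fold change, and the breeds did not overlap in 12 of them. The gene at 4.59 was near the floor in the Holsteins, at 0.026 to 0.127 CPM, and reached 1 CPM only in Jerseys.

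The number of genes called depended on the test and on single cows. With the C and HC libraries of a cow kept apart and limma-voom pairing them by a random replicate block, 357 genes passed, 222 of them higher in the Holsteins. That fit used a single within-cow correlation of 0.171 for all genes, and so treated the libraries of a cow as close to independent samples. Breed differs between cows and not within them, so keeping the libraries apart adds no cows. A gene that passed in that fit and not in the main test is not counted as called here. DESeq2 called 312 genes and edgeR without the parity term 46, 36 of them higher in the Holsteins. Without 1 of the Holsteins, edgeR called 3 genes (without cow 2), 2 (without cow 7), 1 (without cow 9) and 3 (without cow 15). Without 1 of the Jerseys, it called 4 genes (without cow 3), 4 (without cow 4), 0 (without cow 12, with 892 at an unadjusted p under 0.05), 14 (without cow 13) and 9 (without cow 18).

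Of the 2 called genes with a symbol, the 1 higher in the Jerseys was UHRF1 (ENSBTAG00000002224), whose protein binds newly replicated DNA and brings in the methyltransferase that copies methylation to the new strand. The Holsteins were at 0.610 (cow 2), 0.414 (cow 7), 0.529 (cow 9) and 1.49 CPM (cow 15). The Jerseys were at 6.74 (cow 3), 4.01 (cow 4), 8.10 (cow 12), 9.61 (cow 13) and 7.65 CPM (cow 18). All 5 Jerseys were above all 4 Holsteins, and Holstein cow 15 was the nearest to them. The means were 0.760 ± 0.490 CPM (SD, n = 4) and 7.22 ± 2.08 CPM (SD, n = 5), 9.50-fold apart. The log2 fold change, Holstein over Jersey, was -3.23 (SE 0.30, edgeR adjusted p = 0.0185). The gene passed the limit on low counts through the Jerseys, where it is high, since 3 of the 4 Holsteins lay below 1 CPM; with no such limit its adjusted p was 0.00526. Its adjusted p lay above 0.05 without Holstein cow 2 (0.0949), cow 7 (0.0629) or cow 9 (0.0672) and without Jersey cow 12 (0.0852), with log2 fold changes between -3.65 and -2.79 over the 9 fits that left out a cow.

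LYZ (ENSBTAG00000026779), lysozyme, an antibacterial enzyme of macrophages and neutrophils, differed the other way. The Holsteins were at 45.4 (cow 2), 34.2 (cow 7), 35.9 (cow 9) and 28.8 CPM (cow 15). The Jerseys were at 12.8 (cow 3), 12.8 (cow 4), 14.4 (cow 12), 16.7 (cow 13) and 15.7 CPM (cow 18). All Holsteins were above all Jerseys, with a gap between 28.8 and 16.7 CPM. The means were 36.1 ± 6.91 (SD, n = 4) and 14.5 ± 1.72 CPM (SD, n = 5), 2.49-fold apart, and the log2 fold change was 1.33 (SE 0.15, edgeR adjusted p = 0.0301). The adjusted p was under 0.05 in only 2 of the 9 fits without a cow, those without Holstein cow 15 (0.0246) or Jersey cow 13 (0.0412), and 0.0598 to 0.198 in the fits without Holstein cows 2, 7 or 9 or without Jersey cows 3, 4, 12 or 18. With the selection block in place of parity it was 0.0596. Cattle carry several similar lysozyme genes, so the read pairs counted on LYZ are uncertain where they could fall on another member. In bulk tissue, fewer cells of a type and less RNA per cell cannot be told apart. The other markers of macrophages on the list were not analysed here, having no identifier paired with them.

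The other 11 genes called had no symbol at hand, and the 2 with the smallest p in each direction are given. ENSBTAG00000039275 had the smallest p of all. It was at 16.8 (cow 2), 17.8 (cow 7), 15.9 (cow 9) and 14.5 CPM (cow 15) in the Holsteins. In the Jerseys it was at 33.3 (cow 3), 33.1 (cow 4), 33.1 (cow 12), 31.1 (cow 13) and 28.2 CPM (cow 18). The cows of each breed lay close together and the breeds well apart, and the log2 fold change was -0.99 (SE 0.06, edgeR adjusted p = 0.00193). It was called in all but 1 of the 19 alternatives tried, the exception being the fit without Jersey cow 12 (adjusted p = 0.0591).

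ENSBTAG00000034302 was higher in the Jerseys as well, at 2.37 to 4.82 CPM, than in the Holsteins, at 0.655 to 1.22 CPM. Its log2 fold change was -2.05 (SE 0.18, edgeR adjusted p = 0.0175). It passed the limit on low counts through the Jerseys, 3 of the 4 Holsteins lying below 1 CPM. Its adjusted p was 0.0596 with the selection block, and 0.0563 to 0.0789 without Holstein cows 7, 9 or 15 or Jersey cow 12.

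ENSBTAG00000043553 was higher in the Holsteins, at 35.5 (cow 2), 32.0 (cow 7), 36.5 (cow 9) and 18.8 CPM (cow 15), against 4.08 to 12.1 CPM in the Jerseys. Its log2 fold change was 1.85 (SE 0.19, edgeR adjusted p = 0.0207), with 1.36 in the C and 2.41 in the HC libraries. The adjusted p stayed under 0.05 only without Jersey cow 13 or 18, and was 0.067 to 0.119 without any one of the other 7 cows. ENSBTAG00000047389 was at 7.84 to 10.3 CPM in the Holsteins and at 4.22 to 4.93 CPM in the Jerseys, and its log2 fold change was 0.93 (SE 0.10, edgeR adjusted p = 0.0207). In the C libraries alone it was 0.48 (adjusted p = 0.623) and in the HC libraries 1.23. The adjusted p stayed under 0.05 only without Holstein cow 7 or Jersey cow 13, and was 0.0559 to 0.178 without any one of the other 7 cows. In none of these genes did a Holstein overlap a Jersey.

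**Figure D2:**
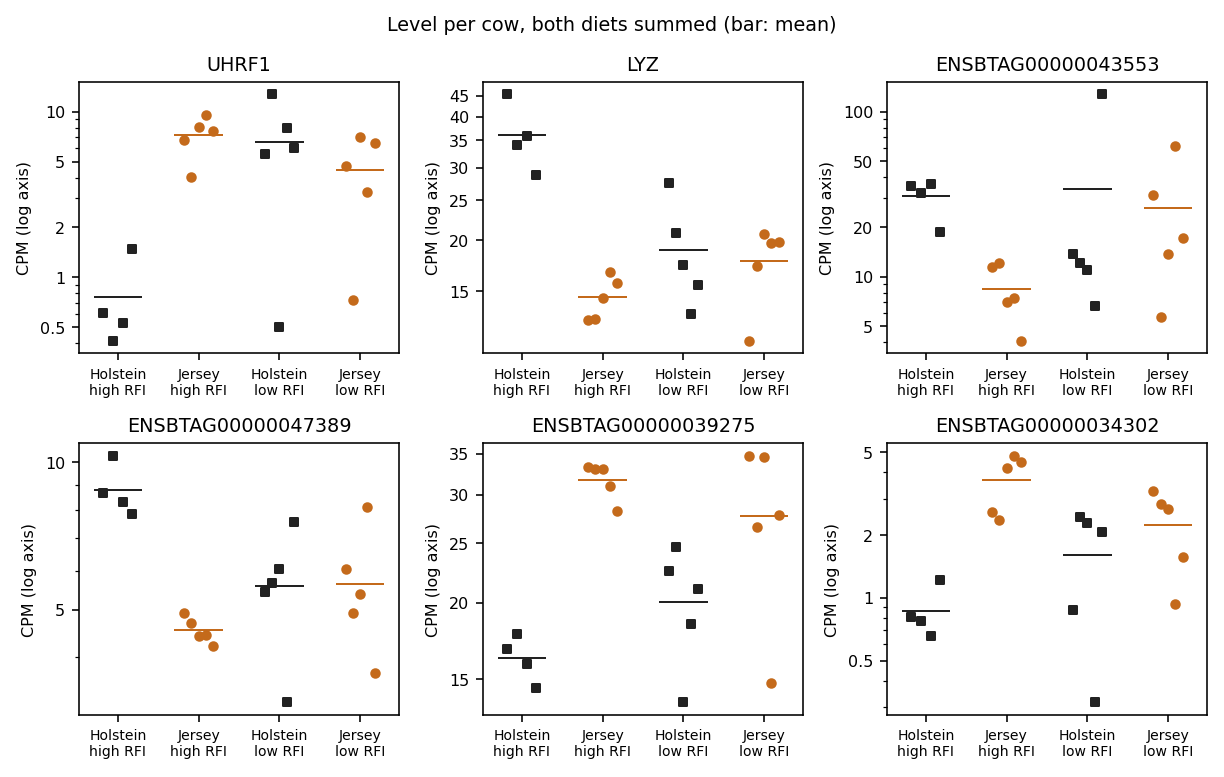
Level of 6 of the called genes in each cow (vertical, CPM on a log axis) by breed and RFI group (horizontal), squares for Holsteins, circles for Jerseys and a bar at the mean. The breeds are apart in the high-RFI cows for every gene shown and overlap in the low-RFI cows; for UHRF1 the high-RFI Holsteins lie at 0.414 to 1.49 CPM and the high-RFI Jerseys at 4.01 to 9.61 CPM.

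Of the 76 genes with a symbol, UHRF1 and LYZ were called, and 30 (39.5%) had an unadjusted p under 0.05, against 13.5% of all genes tested. The breeds did not overlap in 11 (14.5%, against 5.54% of all genes), and the median absolute log2 fold change was 0.31, against 0.10 over all genes. Since the study chose these genes for differences by RFI in the same cows, the shares say nothing about genes not so chosen. All Holsteins were above all Jerseys in LYZ, GNG10, CD3D, TBC1D8, ABR, SLA and ARMC10, and below them in UHRF1, TMEM102, C19orf81 and FICD. C19orf81 was at 0 to 0.912 CPM in the Holsteins and reached 1 CPM only in the Jerseys.

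Next after UHRF1 and LYZ by p were TMEM102 and GNG10, singled out after their values were seen. TMEM102 (ENSBTAG00000031737), which encodes a transmembrane protein, was at 0.407 (cow 2), 0.110 (cow 7), 0.0756 (cow 9) and 0.182 CPM (cow 15) in the Holsteins. It was at 1.78 (cow 3), 1.57 (cow 4), 3.27 (cow 12), 1.70 (cow 13) and 1.10 CPM (cow 18) in the Jerseys, all above the Holsteins, and it passed the limit of 1 CPM through the Jerseys alone. The log2 fold change was -3.33 (SE 0.48, edgeR adjusted p = 0.0657). GNG10 (ENSBTAG00000009087), a gamma subunit of G proteins, was at 82.5 to 116 CPM in the Holsteins and at 59.9 to 72.8 CPM in the Jerseys, and its log2 fold change was 0.62 (SE 0.09, edgeR adjusted p = 0.0700). Both genes passed with DESeq2. They also passed with the random block (limma adjusted p = 0.000261 for TMEM102 and 0.00432 for GNG10), a fit that treated the libraries of a cow as close to independent. Neither was called in a fit that left out a cow, where the smallest edgeR adjusted p was 0.0868 for TMEM102 and 0.0771 for GNG10.

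The other genes were grouped by function and cell type in 28 lists. In 16 lists at least 1 member was paired with an identifier, 29 members in all. Of these, 1 passed the test (LYZ), 12 had an unadjusted p under 0.05 (41.4%, against 13.5% of all genes), and the breeds did not overlap in 3 (10.3%, against 5.54%): LYZ, CD3D and FICD. These members too were among the genes listed for RFI in the same cows, so the shares are not independent evidence. The log2 fold change was above 0 in 17 members and below 0 in 12, with a median of 0.22 over the members and of -0.0016 over all genes. No member could be followed in the lists of hepatocyte, stellate cell and fibroblast, cholangiocyte, erythroid, skeletal muscle and adipocyte markers, nor in cholesterol synthesis and uptake, gluconeogenesis and propionate use, urea cycle and amino acid breakdown, carotenoid and retinol metabolism, acute phase proteins and the circadian clock. These 12 lists were not analysed here.

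**Figure D3:**
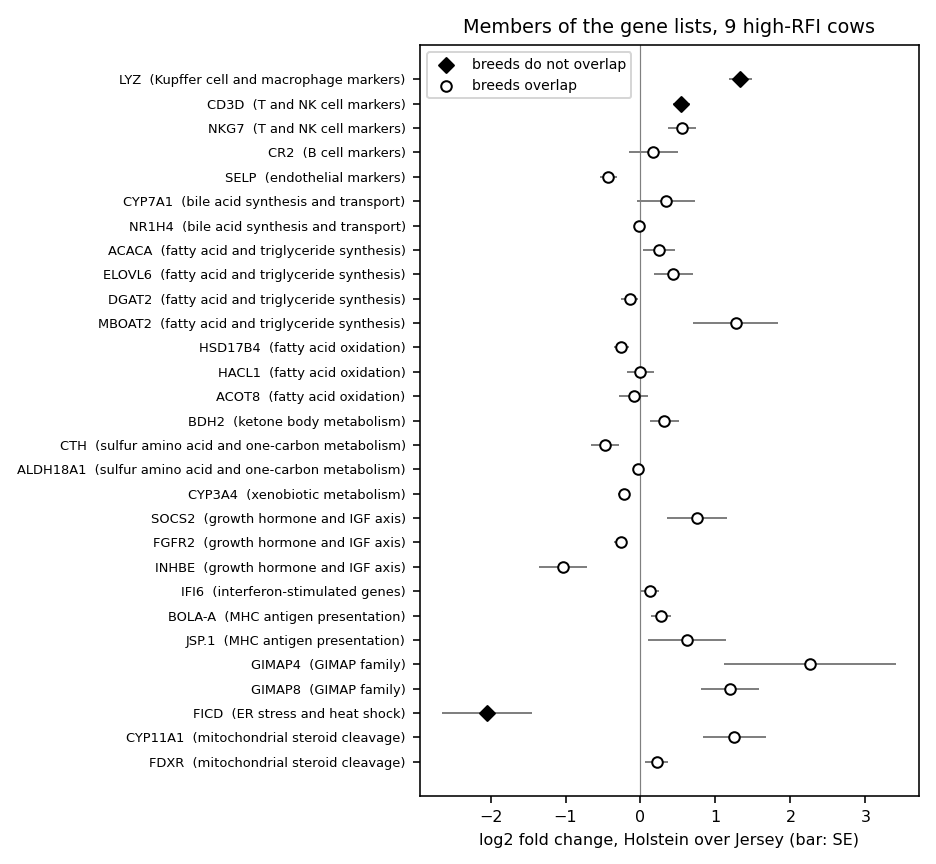
Log2 fold change of the 29 list members, Holstein over Jersey in the 9 high-RFI cows (horizontal, bar: SE), with the list of each gene in brackets. Filled diamonds mark the 3 genes in which the breeds do not overlap; LYZ at 1.33 is the 1 member with an adjusted p under 0.05.

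Among the marker genes of lymphocytes, CD3D (ENSBTAG00000006452), a chain of the T cell receptor complex, was at 4.45 (cow 2), 5.52 (cow 7), 5.24 (cow 9) and 4.56 CPM (cow 15) in the Holsteins. In the Jerseys it was at 3.76 (cow 3), 3.19 (cow 4), 3.06 (cow 12), 3.33 (cow 13) and 3.26 CPM (cow 18). The Holsteins were all above the Jerseys by a small step, and the log2 fold change of 0.55 (SE 0.12) missed the threshold (edgeR adjusted p = 0.153). CD3D passed in 2 of the 10 alternatives that kept all cows, the random block in limma-voom (adjusted p = 0.0119) and DESeq2 (0.0275). It passed in 0 of the 9 edgeR fits without 1 cow (adjusted p of 0.126 to 0.622). NKG7, a granule protein of cytotoxic lymphocytes, was at 13.1 ± 2.01 CPM in the Holsteins (SD, n = 4) and at 8.93 ± 1.95 CPM in the Jerseys (SD, n = 5), and the breeds overlapped (edgeR adjusted p = 0.265). CR2, the complement receptor of B cells, was at 52.9 ± 8.96 and 53.5 ± 27.3 CPM, with 101 CPM in Jersey cow 13 and 33.8 to 49.2 CPM in the other Jerseys. SELP, the adhesion molecule P-selectin of endothelium and platelets, was at 17.5 to 22.5 CPM in the Holsteins and at 19.7 to 33.8 CPM in the Jerseys (log2 fold change -0.43, SE 0.11, edgeR adjusted p = 0.187). With the random block its limma adjusted p was 0.0496, and with DESeq2 0.0353. In the edgeR fits without 1 cow the adjusted p of SELP was 0.193 to 0.622. LYZ and CD3D thus both had their higher values in the 4 Holsteins, while CR2 had similar means and SELP a higher mean in the Jerseys. In the low-RFI cows the sign of CD3D was reversed (log2 fold change -0.41, SE 0.22, edgeR unadjusted p = 0.0861). The part of cell content in the LYZ difference was not tested.

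None of 5 further genes of immune function passed the edgeR test. GIMAP8, a GTPase of lymphocytes, was at 18.3 (cow 2), 26.3 (cow 7), 52.3 (cow 9) and 91.5 CPM (cow 15) in the Holsteins, and between 17.01 and 20.01 CPM in the Jerseys. The spread lay among the Holsteins, whose lowest cow was within the range of the Jerseys (log2 fold change 1.19, SE 0.39, edgeR adjusted p = 0.250). Of the alternatives, GIMAP8 passed only with the random block over libraries kept apart (limma adjusted p = 0.0406). With DESeq2 its adjusted p was 0.177, and in the edgeR fits without 1 cow 0.239 to 0.634. GIMAP4, of the same family, was at 96.2 and 89.5 CPM in Holstein cows 9 and 15 and at 7.88 and 9.85 CPM in cows 2 and 7, while Jersey cows 3 and 4 were at 26.5 and 27.4 CPM and the other Jerseys at 6.14 to 8.24 CPM. Both breeds thus held cows of higher and of lower GIMAP4, but no Jersey reached the level of Holstein cows 9 and 15. The class I histocompatibility gene BOLA-A was at 22.0 ± 3.31 CPM in the Holsteins and at 18.2 ± 2.28 CPM in the Jerseys (SD, n = 4 and n = 5). JSP.1, another class I gene, was at 574 CPM in Holstein cow 2 and at 57.0 to 168 CPM in the other 8 cows. The interferon-induced IFI6 was at 8.37 ± 1.48 and 8.61 ± 1.77 CPM (SD, n = 4 and n = 5). Class I and GIMAP genes lie in families of similar sequence, so that their counts are uncertain.

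FICD (ENSBTAG00000011771), which modifies the chaperone BiP in the endoplasmic reticulum, was lower in every Holstein than in any Jersey. The Holsteins were at 0.636 (cow 2), 1.13 (cow 7), 2.07 (cow 9) and 5.03 CPM (cow 15). The Jerseys were at 14.8 (cow 3), 15.5 (cow 4), 5.42 (cow 12), 5.49 (cow 13) and 13.6 CPM (cow 18). The gap between Holstein cow 15 and Jersey cow 12 was narrow, and the log2 fold change of -2.04 (SE 0.60) missed the threshold (edgeR adjusted p = 0.215). Of the alternatives, FICD passed only with the random block over libraries kept apart (limma adjusted p = 0.0234). With DESeq2 its adjusted p was 0.0679, and in the edgeR fits without 1 cow 0.209 to 0.625.

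None of the 8 genes of fatty acid synthesis, oxidation and ketone metabolism that could be followed passed the test. Of the genes of fatty acid and triglyceride synthesis, ACACA, which makes malonyl-CoA, was at 52.7 ± 17.2 CPM in the Holsteins and at 40.5 ± 10.4 CPM in the Jerseys. ELOVL6, which lengthens saturated fatty acids, was at 65.9 ± 23.7 and 45.1 ± 13.6 CPM, and DGAT2, which completes triglycerides, at 21.7 ± 2.65 and 23.4 ± 5.03 CPM (SD, n = 4 and n = 5). MBOAT2, an acyltransferase of phospholipids, was at 53.8 and 70.4 CPM in Holstein cows 2 and 7, at 14.97 and 9.48 CPM in cows 9 and 15, and at 6.32 to 20.2 CPM in the Jerseys (log2 fold change 1.27, SE 0.56, edgeR adjusted p = 0.379). The higher mean of MBOAT2 in the Holsteins came from those 2 cows.

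Among the genes of peroxisomal and other fatty acid oxidation, HSD17B4, the second enzyme of the peroxisomal pathway, was at 600.1 CPM in Holstein cow 2, at 854 to 912 CPM in the other Holsteins and at 894 to 981 CPM in the Jerseys. Its log2 fold change was -0.26 (SE 0.10, edgeR adjusted p = 0.326). HACL1, of alpha-oxidation, was at 365 ± 31.9 and 359 ± 82.6 CPM, and the thioesterase ACOT8 at 19.1 ± 4.48 and 21.0 ± 4.48 CPM (SD, n = 4 and n = 5). BDH2, a cytosolic dehydrogenase listed with ketone metabolism, was at 53.0 to 56.6 CPM in the Holsteins and at 29.8 to 57.5 CPM in the Jerseys (edgeR adjusted p = 0.531). In the low-RFI cows BDH2 was called, with means of 83.7 CPM in Holsteins and 37.8 CPM in Jerseys and no overlap (log2 fold change 1.16, SE 0.14, edgeR adjusted p = 0.0326).

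For bile acids, CYP7A1 (ENSBTAG00000005287), the rate-limiting enzyme of their synthesis, was at 222 (cow 2), 621 (cow 7), 246 (cow 9) and 199 CPM (cow 15) in the Holsteins. The Jerseys were at 211 (cow 3), 89.8 (cow 4), 303 (cow 12), 286 (cow 13) and 136 CPM (cow 18). The breeds overlapped widely (log2 fold change 0.34, SE 0.39, edgeR adjusted p = 0.755). NR1H4, the bile acid receptor that represses CYP7A1, was at 68.0 ± 5.04 and 69.7 ± 8.34 CPM (SD, n = 4 and n = 5). CYP11A1, which cleaves the side chain of cholesterol, was at 20.3 to 86.6 CPM in the Holsteins and at 9.89 to 55.2 CPM in the Jerseys (log2 fold change 1.25, SE 0.42, edgeR adjusted p = 0.262). FDXR, whose electrons reach CYP11A1 through ferredoxin, was at 5.34 ± 0.943 and 4.597 ± 0.482 CPM (SD, n = 4 and n = 5).

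CYP3A4, an oxidase of drugs and steroids in a family of similar genes, was at 106 to 127 CPM in the Holsteins and at 125 to 150.0 CPM in the Jerseys (log2 fold change -0.22, SE 0.08, edgeR adjusted p = 0.286). The difference was -0.0013 in the C libraries and -0.45 in the HC libraries (adjusted p = 0.998 and 0.113). CTH, which makes cysteine from cystathionine, was at 8.44 ± 1.44 CPM in the Holsteins and at 12.2 ± 2.62 CPM in the Jerseys (SD, n = 4 and n = 5; log2 fold change -0.47, SE 0.19, edgeR adjusted p = 0.323). ALDH18A1, listed beside it although it serves the synthesis of proline, was at 24.1 ± 2.76 and 23.3 ± 2.58 CPM (SD, n = 4 and n = 5).

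In the growth hormone and IGF group, INHBE, a subunit of the activin E that the liver secretes, was at 9.43 to 35.7 CPM in the Holsteins and at 21.7 to 49.5 CPM in the Jerseys (log2 fold change -1.04, SE 0.32, edgeR adjusted p = 0.238). FGFR2, a receptor of fibroblast growth factors, was at 63.5 ± 7.29 and 81.3 ± 10.4 CPM, and SOCS2, which dampens growth hormone signalling, at 53.0 ± 27.2 and 32.5 ± 11.7 CPM (SD, n = 4 and n = 5). The breeds overlapped in each of the 3 genes.

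REC8, a subunit of cohesin known from meiosis, was the 1 gene with a symbol that was not tested, since 2 of the 9 cows reached 1 CPM. Jersey cows 13 and 18 were at 12.8 and 12.9 CPM, and the other 7 cows, the Holsteins among them, at 0.104 to 0.661 CPM. Its pattern thus ran within the Jerseys and not between the breeds.

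Whether the breed difference was the same in cows of high feed efficiency was examined in the 5 Holsteins and 5 Jerseys of the low-RFI group, on the genes that passed the limit in the high-RFI cows. Among these Jerseys, libraries of cows 5 and 14 matched each other better than their own cow across all genes. Those of cows 10 and 17 did so by diet over 54 genes with a wide gap between Jersey libraries. The labels were used as given, so the values of these cows are uncertain. In those cows 29 genes were called (0.241%), and the breeds did not overlap in 300 (2.50%). The 5.54% without overlap in the high-RFI cows came from 4 against 5 cows, and this share from 5 against 5. Ranges of fewer cows separate more easily, so these shares cannot be compared directly. The number of genes called in both groups was 0. Of the 13 genes called in the high-RFI cows, 10 had the same sign in the low-RFI cows, 3 of them with an unadjusted p under 0.05. Of all genes, 62.9% had the same sign, and 1282 (10.7%) had an unadjusted p under 0.05 in the low-RFI cows in either direction. Of the 29 genes called in the low-RFI cows, 27 had the same sign in the high-RFI cows, 16 of them with an unadjusted p under 0.05, beside the 13.5% of all genes given above. The breeds did not overlap in both groups of cows in 27 of the 12020 genes, all in the same direction. That is 4.05% of the high-RFI list, beside 2.50% of all genes without overlap in the low-RFI cows. It is 9% of the low-RFI list, beside 5.54% of all genes without overlap in the high-RFI cows. Over all 19 cows, the breeds did not overlap in 14 of the 12020 genes, 7 higher in each breed. None of these 14 genes has a symbol here, and none is among the 13.

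In the 2 named genes the low-RFI cows of both breeds overlapped. UHRF1 was at 5.52 (cow 1), 12.7 (cow 6), 0.504 (cow 11), 7.96 (cow 16) and 6.02 CPM (cow 19) in the low-RFI Holsteins, and at 4.69 (cow 5), 0.732 (cow 8), 7.07 (cow 10), 3.25 (cow 14) and 6.47 CPM (cow 17) in the low-RFI Jerseys. One cow of each breed was thus as low as the high-RFI Holsteins. LYZ was at 13.2 to 27.6 CPM in the low-RFI Holsteins and at 11.3 to 20.7 CPM in the low-RFI Jerseys. The log2 fold change between the breeds was 0.45 (SE 0.77) for UHRF1 and 0.07 (SE 0.22) for LYZ in these cows.

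The difference between both breed effects was tested as the interaction of breed and RFI in all 19 cows. With edgeR 0 genes had an adjusted p under 0.05, the smallest being 0.455, and 647 had an unadjusted p under 0.05 (5.38%); DESeq2 called 2. Of the 13 genes, 7 had an unadjusted p under 0.05 for the interaction, which uses the cows that chose them. UHRF1 had an interaction of -3.72 on the log2 scale (SE 0.95, edgeR unadjusted p = 0.00113, adjusted p = 0.617), and LYZ one of 1.23 (SE 0.28, edgeR unadjusted p = 0.000465, adjusted p = 0.617). A difference between the high- and low-RFI cows in the breed effect of single genes was thus not established by edgeR.

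**Figure D4:**
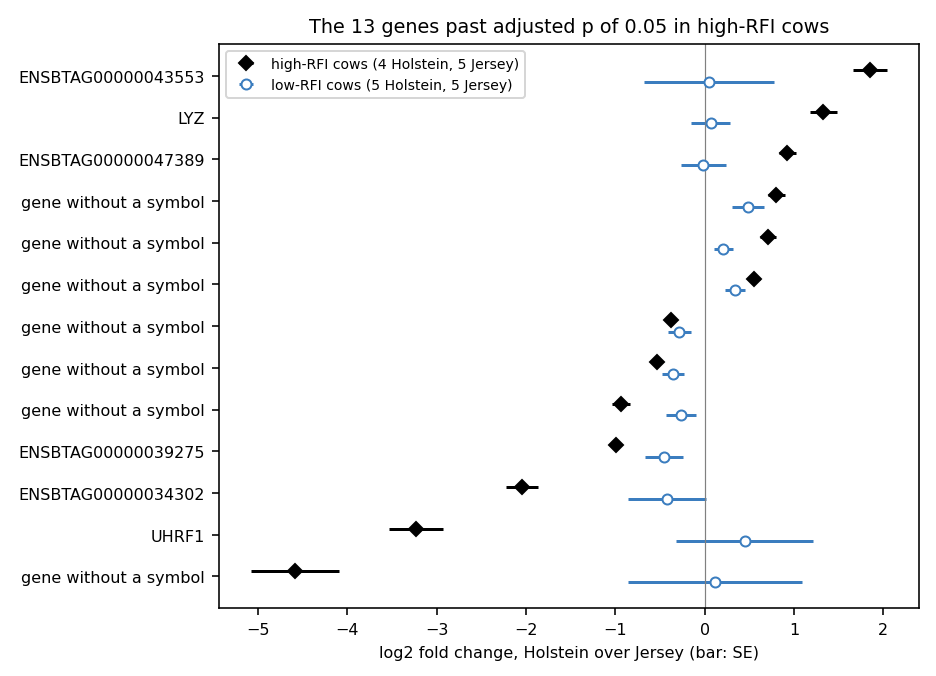
Log2 fold change between the breeds, Holstein over Jersey (horizontal, bar: SE), of the 13 genes with an adjusted p under 0.05 in the high-RFI cows (filled diamonds), beside their value in the low-RFI cows (open circles). UHRF1 is at -3.23 in the high-RFI and at 0.45 in the low-RFI cows; the high-RFI values chose the genes and so lie far from 0.

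The diet was examined in the 18 libraries as the interaction of breed and diet, HC minus C. The main edgeR fit held parity, breed and diet but no term for the cow, and so counted the libraries of a cow as independent. In it 0 genes had an adjusted p under 0.05, and 431 (3.59%) passed 0.05 before adjustment. A fixed replicate block for each cow, by which the 2 diets are compared within cows as paired libraries, gave 0 and 626 of the 12020 genes. DESeq2, without a term for the cow, called 0 genes. In single libraries UHRF1 was at 0.413 and 0.797 CPM (C and HC of cow 2), 0.549 and 0.275 (cow 7), 0.151 and 0.907 (cow 9) and 2.03 and 0.969 (cow 15) in the Holsteins. The Jerseys were at 4.93 and 8.44 CPM (cow 3), 4.06 and 3.93 (cow 4), 6.38 and 9.69 (cow 12), 9.93 and 9.19 (cow 13) and 8.34 and 6.79 (cow 18). Every Jersey library was above every Holstein library, whatever the diet. The breed difference in UHRF1 was -3.10 on the log2 scale in the C libraries and -3.37 in the HC libraries, with edgeR adjusted p-values of 0.0489 and 0.0129.

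LYZ was at 43.9 and 46.6 CPM (C and HC of cow 2), 38.4 and 29.6 (cow 7), 40.1 and 31.6 (cow 9) and 18.9 and 38.3 (cow 15) in the Holsteins. In the Jerseys it was between 11.6 and 14.9 CPM on C and between 13.4 and 19.2 CPM on HC. The C library of Holstein cow 15 lay within reach of the Jerseys, below the HC library of Jersey cow 13, and all other Holstein libraries were above all Jersey libraries. The breed difference was 1.31 in the C libraries and 1.30 in the HC libraries on the log2 scale, with edgeR adjusted p-values of 0.270 and 0.00968.

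**Figure D5:**
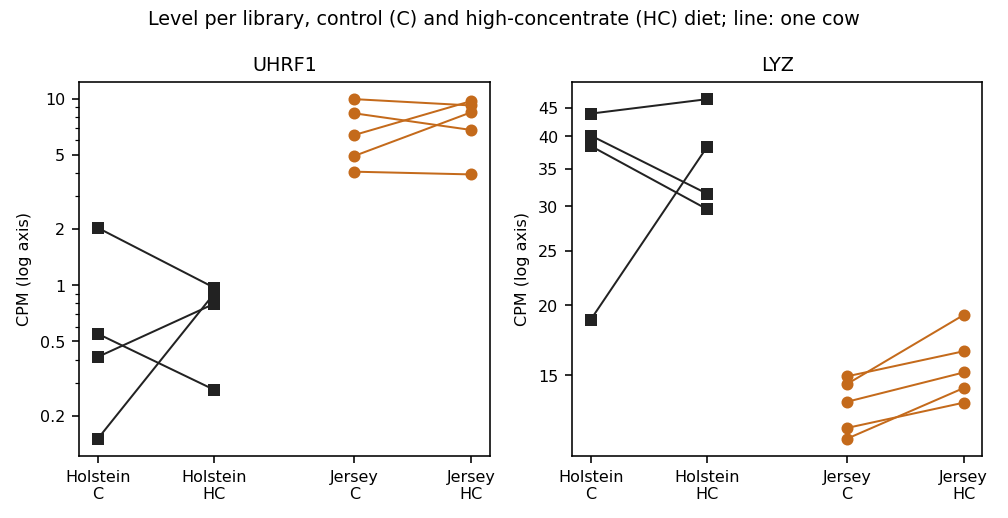
UHRF1 (left) and LYZ (right) in each library of the high-RFI cows (vertical, CPM on a log axis) on the control (C) and high concentrate (HC) diet (horizontal), with a line joining the 2 libraries of a cow. Every Jersey library is above every Holstein library in UHRF1; in LYZ the C library of Holstein cow 15, at 18.9 CPM, is the 1 Holstein library that reaches the Jerseys.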

How the data were processed

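The deposited files held raw counts, which the authors made with HTSeq-count (version and strand setting not given in the sources used here) as read pairs per Ensembl gene, from stranded mRNA libraries aligned with STAR 2.3.0 to UMD3.1. Rows that name no gene were left out of library sizes: read pairs outside genes made up 21.8 to 24.9% and ambiguous ones at most 0.023% of a library. The C and HC counts of a cow were summed. Genes with 1 CPM in 4 or more of the 9 high-RFI cows were tested in R 4.3.3 with edgeR 4.0.16 (TMM, quasi-likelihood F-test, two-sided, parity as a factor) and adjusted by Benjamini-Hochberg over all 12020 genes. The standard error is the absolute log2 fold change divided by the square root of F. CPM used TMM factors over all 19 cows, or over all 38 libraries for single libraries, and the principal components log2 CPM with a prior count of 2. The alternatives, in limma 3.58.1, DESeq2 1.42.0 (Wald test) and edgeR, are given in the closing section. The scripts were tested on simulated data.

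The members, gene lists and tests were chosen with earlier results of these data known. Named were genes with a symbol and an adjusted p under 0.05, up to 4 such members of each list or else the member with the smallest p, and at most 2 identifiers in each direction; other list members, REC8, and genes in which the breeds did not overlap were added after their values were seen. Symbols came from the study's lists of identifiers. Replicates are separate cows. That C and HC libraries pair by cow follows from the numbers in the labels. In the 9 high-RFI cows each C library matched the cow's own HC library best among the HC libraries of her breed and RFI group. Low-RFI Jersey cows 5 and 14 matched each other better across all genes. Over 54 genes with a wide gap between Jersey libraries, the C library of high-RFI cow 4 was closest to that of low-RFI cow 10 (r of 0.52). Its r with the HC library of cow 4 was 0.51. The C and HC libraries of each high-RFI cow were not copies of each other, as their counts differed by a chi-square of 13.7 to 75.3 times the degrees of freedom. The labels of feed efficiency were used as given, although the study's listing of cows has the names of the RFI groups the other way round, and the selection block and diet order come from the study's description of its cows. Genes near 1 CPM rest on the fewest read pairs and are the least precise.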

Additional observations from a re-analysis of the deposited data

Results flagged for a closer look

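In 2 of the 46 groups examined (23 named genes in 2 breeds), 1 high-RFI cow lay further from the others of her breed than Dixon's 95% limit allows; chance flags about 1 group in 20. CR2 was at 101 CPM in Jersey cow 13 and at 33.8 to 49.2 CPM in the other 4 Jerseys. CYP7A1 was at 621 CPM in Holstein cow 7 and at 199 to 246 CPM in the other 3 Holsteins. Neither gene differed between the breeds at an adjusted p under 0.05.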

How the results depend on the processing

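The count of 13 genes for the breed difference in high-RFI cows became 312 with DESeq2, 25 with no filter on low counts, 46 with no parity term, 7 in the C and 57 in the HC libraries alone and 357 with the paired libraries and the cow as a random replicate block; without 1 cow it ranged from 0 to 14. DESeq2's size factors, the selection block, limma-voom and a robust prior, the last chosen after seeing the data, gave 13, 11, 16 and 16, and 5 of the 11 genes with the selection block were among the 13. In the low-RFI cows the 29 genes became 219 with DESeq2, 0 to 20 without 1 cow and 1 without cows 10 and 17, a choice made after seeing the data because their libraries on the same diet resembled each other more than the cow's own (r of 0.58 on C and 0.90 on HC over 54 genes). The 0 genes of the interaction of breed and RFI became 2 with DESeq2 and stayed 0 in the other alternatives; that of breed and diet was 0 in all, with the replicate block too. Of the named genes, 3 changed sign: CR2 (main value 0.17) to -0.018 with no parity term and to -0.066 to 0.59 without 1 cow, CYP7A1 (0.34) to -0.27 in the HC libraries, and IFI6 (0.12) to -0.041 with no parity term and -0.0089 with the selection block. The cause was not tested. With 5 residual degrees of freedom, differences that are small beside the spread between cows could not be seen.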
